A study of Mus musculus with 58 samples.

Results

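Lysosomal proteases were followed across liver macrophages and monocytes of injured mice. The genes described are 10 of the 25307 genes in the deposited table: the cathepsins Ctsa, Ctsb, Ctsc, Ctsd, Ctsh, Ctsl, Ctss and Ctsz, legumain (Lgmn), and cystatin C (Cst3). They were chosen by name, and all 10 were found in the table by Ensembl identifier through the GENCODE M21 annotation. Each was detected in all 58 libraries. The libraries hold RNA of mouse liver cells (strain 129SV), labelled as Kupffer cells (KC, the resident macrophages of the liver; 20 libraries), monocyte-derived macrophages (MoMF; 19) and monocytes (Mo; 19). The injury groups were CBDL2w and CBDL6w (ligation of the common bile duct, labelled as onset and advanced cholestatic injury), DSS (acute colitis) and CBDL+DSS (advanced cholestatic injury with acute colitis), with Sham6w as the controls. The titles give 2 weeks for CBDL2w, 6 weeks for CBDL6w and Sham6w, and no time for DSS and CBDL+DSS. No controls at 2 weeks were among the libraries, so in CBDL2w against Sham6w ligation and time cannot be told apart. Each combination of cell type and injury had 4 libraries, except 3 for MoMF Sham6w and 3 for Mo Sham6w. The design text says that replicates were pooled for several samples, and 9 libraries carry labels that join 2 or 3 replicate numbers, such as 1+2+5. The labels name no transgene or genetic change, and neither the animals' age nor the sorting gates were given in the sources used here. No label says that replicates came from separate animals, so p-values measure the spread between these libraries.

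Cathepsins are proteases of the endosome and lysosome that are made as inactive precursors and become active in the acidic compartment. In macrophages they digest engulfed cells and proteins, trim other proteases into their active forms, and cut the invariant chain so that MHC class II molecules can be loaded with peptide. Cystatin C is a secreted protein that blocks papain-like cysteine cathepsins, and legumain through a separate site.

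In GRCm38, GENCODE M21 places Ctsa (ENSMUSG00000017760) at chr2:164832873-164841032 on the plus strand, Ctsb (ENSMUSG00000021939) at chr14:63122462-63145923 on the plus strand, Ctsc (ENSMUSG00000030560) at chr7:88278085-88310888 on the plus strand and Ctsd (ENSMUSG00000007891) at chr7:142375911-142388038 on the minus strand. It places Ctsh (ENSMUSG00000032359) at chr9:90054152-90076089 on the plus strand, Ctsl (ENSMUSG00000021477) at chr13:64359337-64370890 on the minus strand and Ctss (ENSMUSG00000038642) at chr3:95526786-95556403 on the plus strand. The others are Ctsz (ENSMUSG00000016256) at chr2:174427493-174439039 on the minus strand, Lgmn (ENSMUSG00000021190) at chr12:102394084-102439813 on the minus strand and Cst3 (ENSMUSG00000027447) at chr2:148871722-148875692 on the minus strand. All are annotated as protein-coding, and each value is a count per gene from libraries made with a 3' mRNA kit.

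Regulators of lysosomal genes such as TFEB bind E-box motifs near the start of many of these genes, so the promoter windows of RefSeq (GRCm38.p6) were searched. RefSeq windows, 250 bases before to 50 bases after a start, were at hand for 8 of the 10 genes, with 2 windows each for Ctsa and Lgmn (10 windows in all). The E-box CACGTG, which reads the same on both strands, lies in 4 of these windows (Ctsa, Ctsd, Ctsl and Lgmn), against 7.15% of all 32851 windows. The longer form TCACGTGA, which contains that E-box and also reads the same on both strands, lies in 2 of them (Ctsa and Ctsd), against 0.974% of all windows. The motifs were chosen after matches had been looked at, and a match describes letters, not binding. Sites of 30 bases are shown for each E-box before a RefSeq start, 5′ to 3′ on the gene's strand, with the motif in capitals. These windows reach into the gene as GENCODE M21 draws it.
Ctsd, first site, chr7:142388048-142388077, minus strand: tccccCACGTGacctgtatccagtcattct
Ctsd, site nearer the start, chr7:142387908-142387937, minus strand: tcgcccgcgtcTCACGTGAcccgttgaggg
Ctsa, chr2:164833743-164833772, plus strand: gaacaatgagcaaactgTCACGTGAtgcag
Lgmn, chr12:102439124-102439153, minus strand: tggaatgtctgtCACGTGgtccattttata
Ctsl, chr13:64370739-64370768, minus strand: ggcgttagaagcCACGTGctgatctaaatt

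The CACGTG of the sites nearer to the start begins at positions -98 in Ctsd, -12 in Ctsa and -49 in Lgmn, counted from the RefSeq start, and that of the other 2 begins at -245 in Ctsd and -236 in Ctsl. Ctsa holds another match after its start, at position 5. Ctss and Ctsc, whose RefSeq windows begin outside the GENCODE gene, held other motifs in the 250 bases before the start. The interferon-type motif (GAAA, any 2 bases, GAAA; both strands searched) lies in the window of Ctss, against 3.44% of all windows. The PU.1-type motif GAGGAAGT (both strands searched; PU.1 is a transcription factor of myeloid cells) lies in the windows of Ctsc and Ctss, against 3.20% of all windows. In Ctss it runs across the start and is therefore not within the bases shown. The AP-1 motif TGANTCA lies in 0 of the 10 windows, against 7.81% of all windows.
Ctss, chr3:95526536-95526785, plus strand, interferon-type motif in capitals: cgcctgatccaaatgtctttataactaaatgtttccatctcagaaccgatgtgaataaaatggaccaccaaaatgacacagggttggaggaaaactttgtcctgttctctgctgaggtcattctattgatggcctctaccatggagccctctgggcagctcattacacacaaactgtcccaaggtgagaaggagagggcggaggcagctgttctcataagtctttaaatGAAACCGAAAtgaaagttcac
Ctsc, chr7:88277835-88278084, plus strand, PU.1-type motif in capitals: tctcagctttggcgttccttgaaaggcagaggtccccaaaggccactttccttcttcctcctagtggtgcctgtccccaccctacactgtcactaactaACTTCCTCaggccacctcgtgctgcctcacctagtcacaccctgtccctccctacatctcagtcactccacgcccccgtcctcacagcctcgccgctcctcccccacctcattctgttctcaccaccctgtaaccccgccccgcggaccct

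Libraries held 228741 to 521954 reads in KC, 118687 to 461071 in MoMF and 235531 to 377725 in Mo. The cell labels were checked with marker genes. Kupffer cell markers (7 genes such as Clec4f and Timd4) took 0.179 to 0.768% of reads in KC, 0.0165 to 0.265% in MoMF and 0.00544 to 0.0823% in Mo. Classical monocyte markers (6 genes such as Ly6c2 and Ccr2) took 0.0174 to 0.0857% in KC, 0.0701 to 0.307% in MoMF and 0.251 to 0.571% in Mo. Within KC, the Kupffer cell marker share was lower in every injury group than in controls: 0.269 to 0.397% in CBDL2w, 0.179 to 0.384% in CBDL6w, 0.51 to 0.673% in DSS and 0.446 to 0.579% in CBDL+DSS, against 0.682 to 0.768% in Sham6w. The part of this shift in the results was not tested. In bulk libraries fewer cells of a type and less RNA per cell cannot be told apart.

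All values below are the authors' normalized counts (gene counts divided by the library's size factor) or log2 differences of (normalized count + 1), the second with standard error (SE). A gene passed when its two-sided limma p, adjusted over all genes tested by Benjamini and Hochberg, was under 0.05. All 10 genes passed the filter on low values in each fit.

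Legumain varied most and Ctsz least between the 15 groups. Lgmn, which cuts after asparagine and processes several cathepsins, had its highest group mean in KC CBDL+DSS, 365 ± 55.9 (SD, n = 4), and its lowest in Mo CBDL6w, 45 ± 10.2 (SD, n = 4), a ratio of 8.10. Ctsz, a carboxypeptidase, stayed between 9.82 and 26.6 in every library, and its group means differed by a ratio of 1.84. The ratio of the highest to the lowest group mean was 5.97 for Ctsl, 5.89 for Ctsd, 4.47 for Ctsb, 3.58 for Ctsa, 3.30 for Ctsh, 3.17 for Ctsc, 2.68 for Cst3 and 2.30 for Ctss. The highest mean was in KC CBDL+DSS for Ctsb, Ctsd, Ctsh and Lgmn, in MoMF CBDL+DSS for Ctss and Ctsz, in KC Sham6w for Ctsa, in KC DSS for Ctsc, in Mo DSS for Ctsl and in MoMF CBDL6w for Cst3. In the order of the 15 means, neighbours mostly overlapped in their libraries. For Ctsb, the 5 highest groups were the 4 KC groups other than DSS and MoMF CBDL+DSS, and the fifth lay above the next, KC DSS, without overlap.

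**Figure D1:**
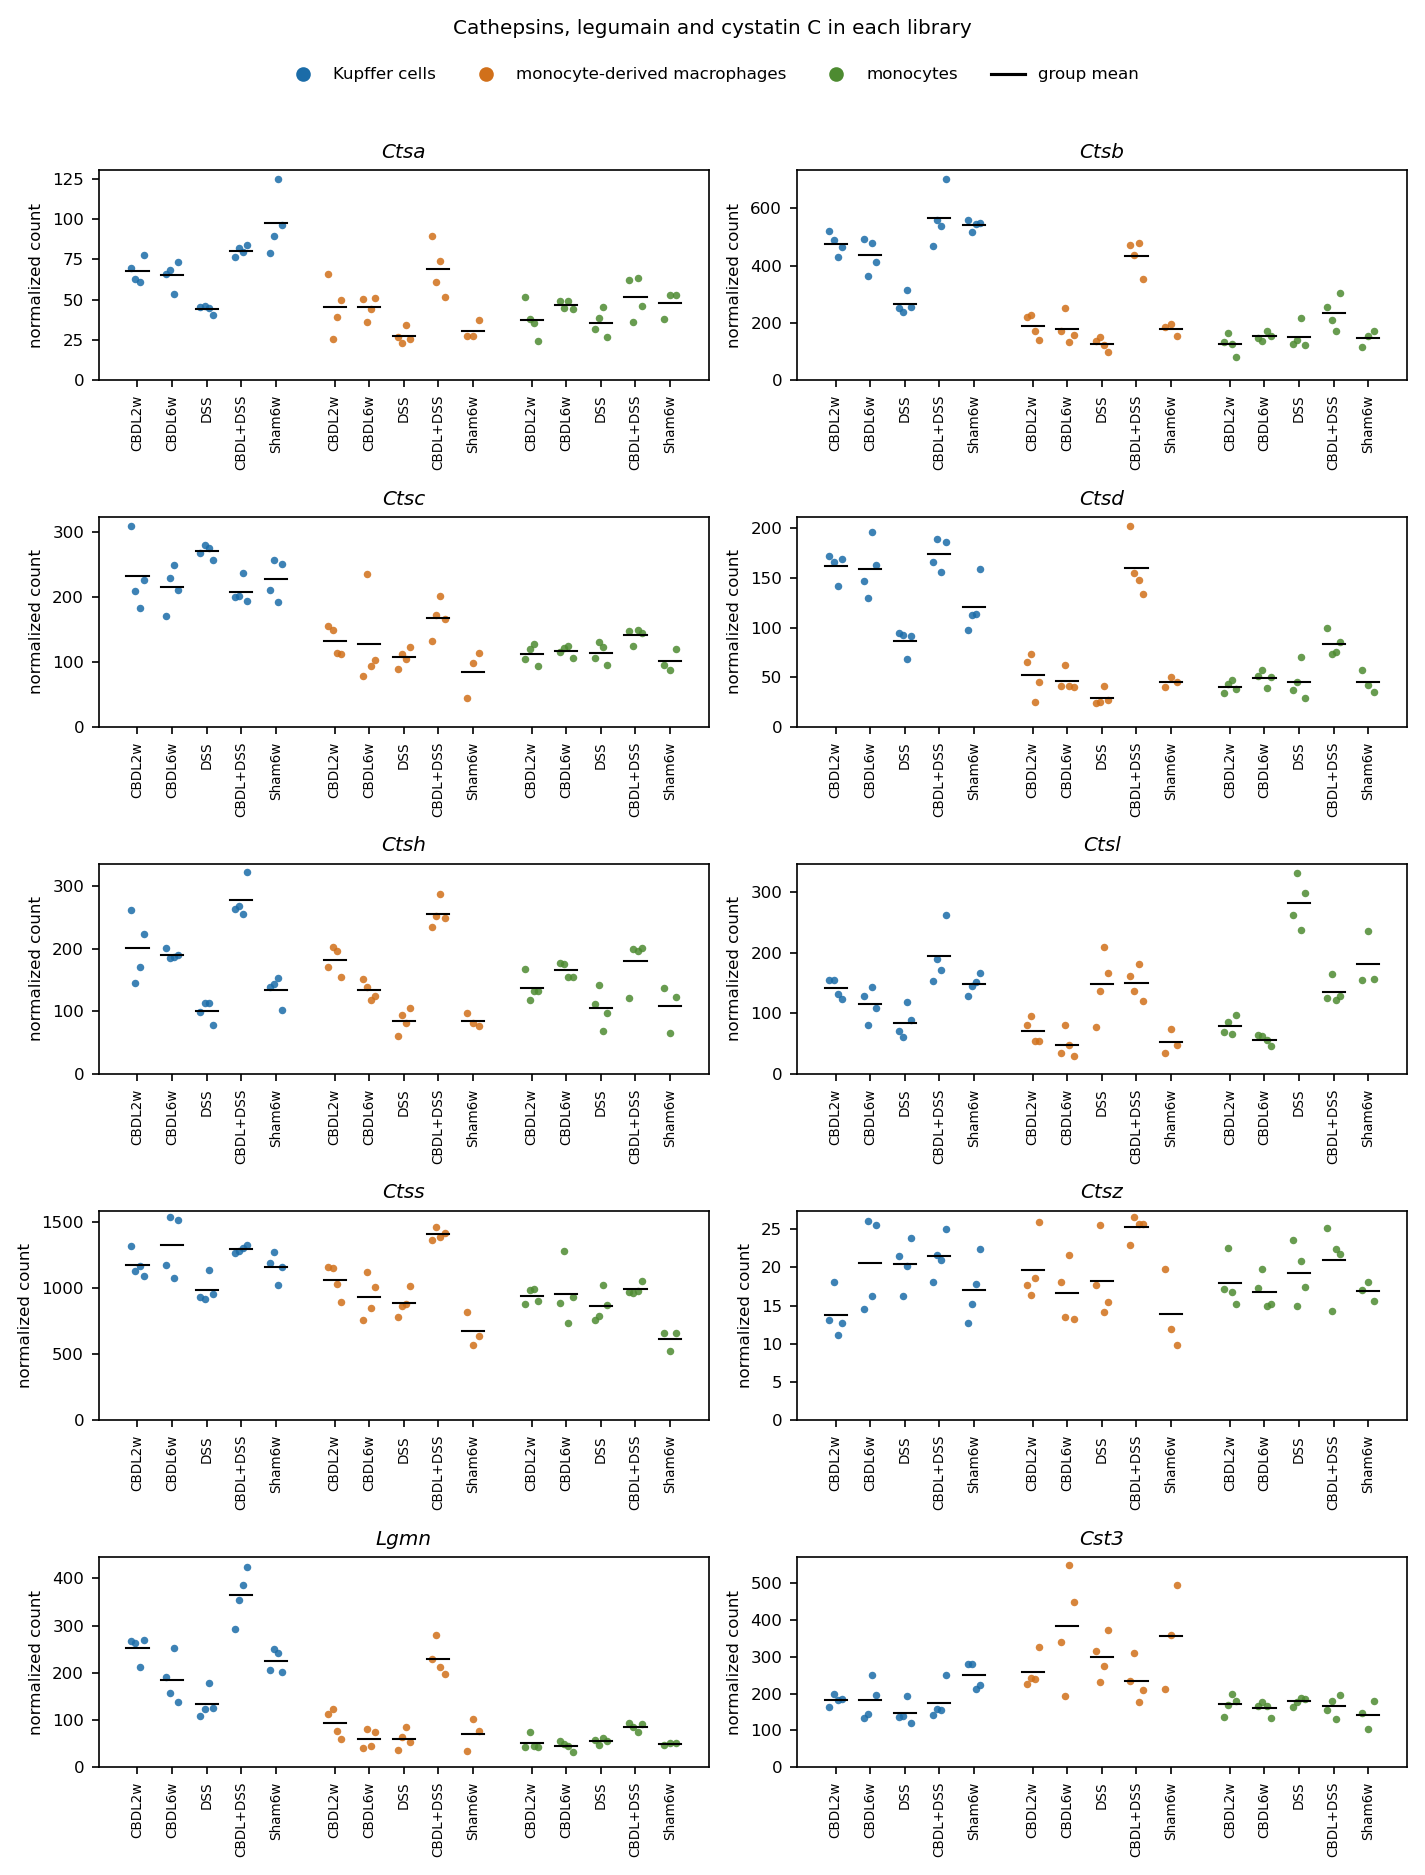
Normalized counts of the 10 genes in each of the 58 libraries (vertical axes, linear from 0), by cell type and injury group (horizontal axes); points are libraries and bars are group means. In MoMF, the CBDL+DSS libraries of Lgmn (196 to 279) and Ctsd (134 to 202) lie above all other MoMF libraries.

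In control livers, KC held more of most of the proteases than either other cell type. Compared with MoMF, 8 of the 10 genes were higher in KC and 0 were lower, where 15.9% of 7555 genes passed. Compared with Mo, 7 were higher and 0 were lower, where 16% passed. The median difference over the 10 genes was 1.44 from MoMF and 0.96 from Mo, beside medians of 0.14 and -0.01 over all genes tested. Ctsb, a cysteine protease, had 560.0, 517, 546 and 548 in the 4 KC libraries, 186, 196 and 154 in the 3 MoMF libraries and 115, 153 and 171 in the 3 Mo libraries. The KC libraries lay above all others, with log2 differences of 1.61 ± 0.21 from MoMF (adjusted p = 1.04e-07) and 1.90 ± 0.21 from Mo (adjusted p = 5.61e-10). Lgmn had 205, 249, 241 and 201 in KC, 34.7, 102 and 75.6 in MoMF and 45.9, 51.9 and 50.3 in Mo. Here too KC stood above both without overlap, by 1.77 ± 0.27 (adjusted p = 3.17e-06) and 2.16 ± 0.27 (adjusted p = 2.13e-08). Ctsd (an aspartic protease), Ctsa (a carboxypeptidase that also protects neuraminidase and beta-galactosidase), Ctsc (which activates granule serine proteases) and Ctss (which cuts the invariant chain) were likewise higher in KC than in both, by 0.79 to 1.64 from MoMF and by 0.92 to 1.41 from Mo. The call for Ctsh, an aminopeptidase, which passed against MoMF at 0.66 ± 0.22, was lost without KC library 1, 2 or 3 or MoMF library 3 or 4+6 (adjusted p = 0.0576 to 0.0904). With the joined libraries left out, which leaves 1 MoMF and 1 Mo control library, 4 genes passed against MoMF and 4 against Mo.

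Ctsl and Cst3 set MoMF apart from Mo in control livers. Ctsl, a cysteine protease, had 34.7, 73.9 and 47.1 in MoMF against 155, 235 and 157 in Mo, and did not overlap between them. The log2 difference was -1.83 ± 0.29 (adjusted p = 4.03e-05). Cst3, the inhibitor, had 213, 361 and 496 in MoMF against 147, 103 and 179 in Mo. Every MoMF library lay above the Mo libraries, by 1.27 ± 0.27 (adjusted p = 0.00192). These 2 of the 10 genes passed where 6.15% of genes did, and 0 of the 2 passed with the joined libraries left out, which leaves 1 library on each side. Endothelial marker reads (8 genes, all detected) moved with Ctsl: they took 0.0227 to 0.0462% in MoMF and 0.178 to 0.315% in Mo. Their part in the difference was not tested.

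In KC, colitis alone went with lower levels of 4 proteases and of cystatin C. Against Sham6w, 5 of the 10 genes fell in DSS and 0 rose, where 7.89% of 6159 genes passed in either direction and 4.55% fell. The median change of the 10 genes was -0.61, beside -0.066 over all genes. Ctsb had 251, 239, 315 and 257 in DSS against 560.0, 517, 546 and 548 in Sham6w. All DSS libraries were lower than all controls, and the change was -1.04 ± 0.14 (adjusted p = 0.000102). Ctsa had 45.6, 46.3, 44.8 and 40.7 in DSS against 78.8, 89.7, 125 and 96.3 in Sham6w. It fell by 1.10 on the log2 scale, ± 0.17 (adjusted p = 0.000376), again without overlap. Ctsa shares 495 exon bases with Pltp on the opposite strand, and whether counting used strand is not given in the sources used here. Pltp moved the same way, with 24.5 ± 6.6 in DSS and 65.4 ± 11.6 in Sham6w (SD, n = 4 each), and its part in the Ctsa value was not tested.

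The other 3 falls in KC DSS were smaller. Lgmn had 107, 124, 178 and 126 in DSS against 205, 249, 241 and 201 in Sham6w, a change of -0.76 ± 0.18 (adjusted p = 0.0146). Ctsl had 70.6, 60.0, 118 and 88.3 in DSS against 128, 145, 152 and 167 in Sham6w, a change of -0.84 ± 0.21 (adjusted p = 0.0173). Cst3 had 136, 139, 193 and 119 in DSS against 280.0, 280.1, 213 and 224 in Sham6w, a change of -0.77 ± 0.20 (adjusted p = 0.023). In each of these the DSS libraries lay below the controls without overlap. Lgmn missed the threshold without Sham6w library 2 (adjusted p = 0.0526) and Ctsl without DSS library 2 (0.0703). Cst3 missed it without Sham6w library 1 or 2 or DSS library 2 or 4 (adjusted p = 0.0622 to 0.0775), and 3 genes in all passed without Sham6w library 2 or without DSS library 2. Ctsd (-0.46), Ctsh (-0.41), Ctss (-0.24), Ctsc (0.26) and Ctsz (0.26) did not pass. Marker shares moved with the group without overlap. Classical monocyte markers, all 6 detected, took 0.0338 to 0.0857% of reads in KC DSS and 0.0174 to 0.0299% in Sham6w. Ribosomal protein transcripts took 11.9 to 13.7% in DSS and 7.84 to 8.87% in Sham6w, and mitochondrial transcripts 3.49 to 5.2% in DSS and 6.46 to 9% in Sham6w. Both of the last lists moved the same way in KC CBDL+DSS, at 9.41 to 11.8% and 4.55 to 5.75%. The part of these lists in the falls was not tested. Of the 15 listed genes of the pathway that were tested (other cathepsins, inhibitors, lysosomal sorting, regulators, partners), Tlr7, an endosomal receptor that cathepsins cleave, fell by 1.81 on the log2 scale (adjusted p = 0.0138), and 0 rose.

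**Figure D2:**
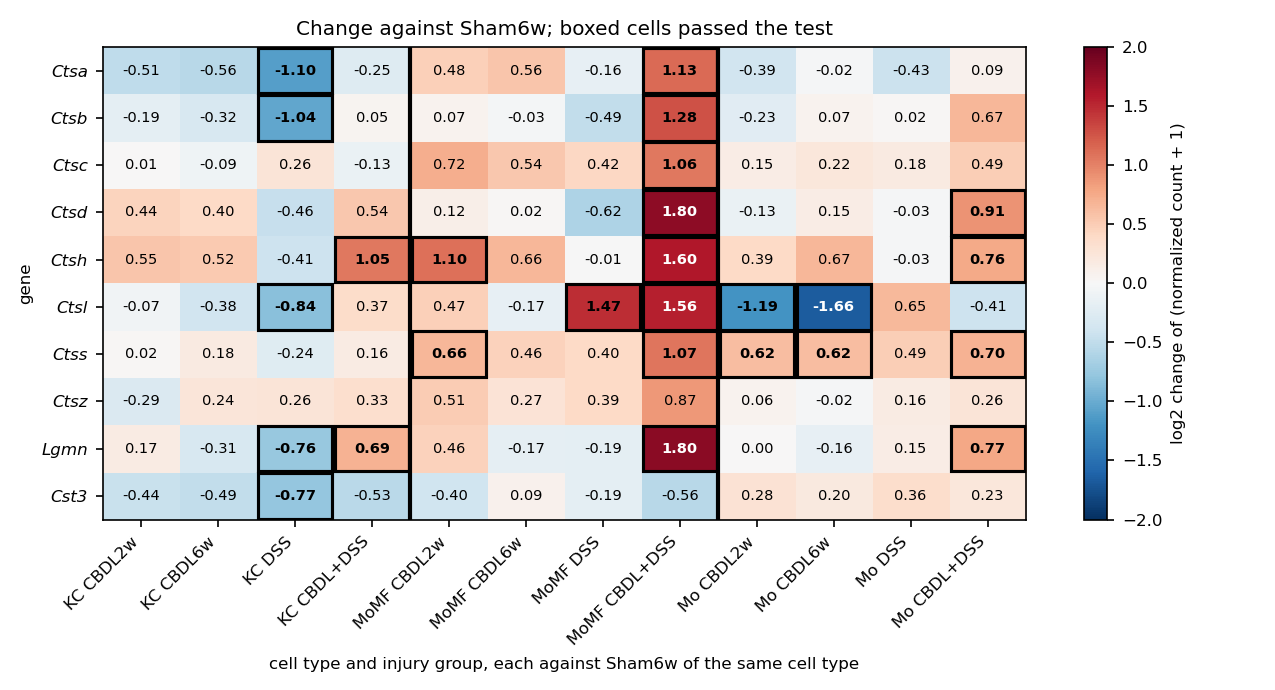
Log2 change of (normalized count + 1) of each gene (rows) in each injury group against Sham6w of the same cell type (columns); boxed cells passed the limma test. The DSS column of KC holds 5 boxed falls and the CBDL+DSS column of MoMF holds 8 boxed rises; each cell type's 4 columns share their control libraries.

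Ligation alone moved none of the 10 genes in KC past the threshold with limma. The count was 0 of 10 in CBDL2w, where 2.71% of genes passed, and 0 of 10 in CBDL6w, where 3.25% passed. At an unadjusted p under 0.05 the counts were 4 and 5, edgeR called 0 in both, and DESeq2 called 1 in each. Ctsa had the largest change in CBDL6w and the second largest, after Ctsh, in CBDL2w, with 69.7, 62.7, 61 and 77.4 in CBDL2w and 66.1, 68.1, 53.7 and 73.6 in CBDL6w, against 78.8, 89.7, 125 and 96.3 in Sham6w. Its log2 changes of -0.51 ± 0.17 and -0.56 ± 0.17 did not pass, although the libraries did not overlap. Ctsh had 146 to 261 in CBDL2w, with overlap, and 185 to 201 in CBDL6w, above 101 to 154 in Sham6w without overlap. Ctsb in CBDL6w (363 to 494, against 517 to 560 in Sham6w) lay below the controls without overlap. So did Cst3 in CBDL2w (163 to 197, against 213 to 280).

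When colitis came on top of ligation, 0 of the 5 genes lower in KC DSS passed as lower. Cst3 averaged 175 ± 50.3 in KC CBDL+DSS against 249 ± 35.7 in Sham6w (SD, n = 4 each). Ctsa averaged 80.4 ± 3.10 against 97.5 ± 19.8 (SD, n = 4 each). Both means were lower than in Sham6w, with overlap, and those of Lgmn, Ctsb and Ctsl were higher. Against Sham6w, 2 of the 10 genes rose in KC CBDL+DSS and 0 fell, where 3.31% of genes passed. Ctsh had 263, 268, 256 and 323 in CBDL+DSS against 139, 143, 154 and 101 in Sham6w. The 2 groups lay apart by 1.05 ± 0.18 (adjusted p = 0.000874). Lgmn had 293, 355, 386 and 425 in CBDL+DSS against 205, 249, 241 and 201 in Sham6w, a change of 0.69 ± 0.18 (adjusted p = 0.0368). This call was lost without any 1 of the Sham6w libraries 1, 2, 3 and 4 or the CBDL+DSS libraries 2, 4+5 and 6 (adjusted p = 0.0536 to 0.126). Against CBDL6w, Lgmn was the 1 gene that passed, where 1.74% did. It had 293, 355, 386 and 425 in CBDL+DSS against 190.3, 157, 251 and 138 in CBDL6w, which did not overlap, a change of 1.01 ± 0.18 (adjusted p = 0.00747). Without CBDL6w library 3 the count against CBDL6w was 2.

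The effect of colitis differed with ligation for 5 of the 10 genes in KC. The test compares CBDL+DSS minus CBDL6w with DSS minus Sham6w, and 6.02% of genes passed it. Cst3, which fell in KC DSS, did not pass it. The difference was positive for each of the 5. It was 1.77 ± 0.26 for Lgmn (adjusted p = 0.000513), 1.60 ± 0.30 for Ctsl (0.00299) and 1.41 ± 0.20 for Ctsb (0.00027). Ctsa differed by 1.40 ± 0.24 (0.00134), and Pltp, which overlaps it, had 136 ± 12.1 in CBDL+DSS and 77.4 ± 23 in CBDL6w (SD, n = 4 each). The mean of Pltp was 65.4 ± 11.6 in KC Sham6w. Ctsa averaged 80.4 ± 3.1 in KC CBDL+DSS, 65.4 ± 8.39 in CBDL6w and 97.5 ± 19.8 in Sham6w (SD, n = 4 each). The part of Pltp in the Ctsa values was not tested. Ctsh differed by 0.95 ± 0.25 (0.0299), a call lost without Sham6w library 2 or 3, DSS library 4 or CBDL+DSS library 6 (adjusted p = 0.0568 to 0.0633). For Ctsl, KC CBDL+DSS had 154, 190.3, 172 and 263 and KC CBDL6w had 128, 80.7, 143 and 109, so the ligated mice were higher with colitis in every library. The unligated mice with colitis were lower in every library, as given above. The median difference was 0.84 over the 10 genes and 0.14 over all genes. Of the 15 pathway genes tested, Tfec, a relative of TFEB found in macrophages, also passed, at 1.83 (adjusted p = 0.0438).

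**Figure D3:**
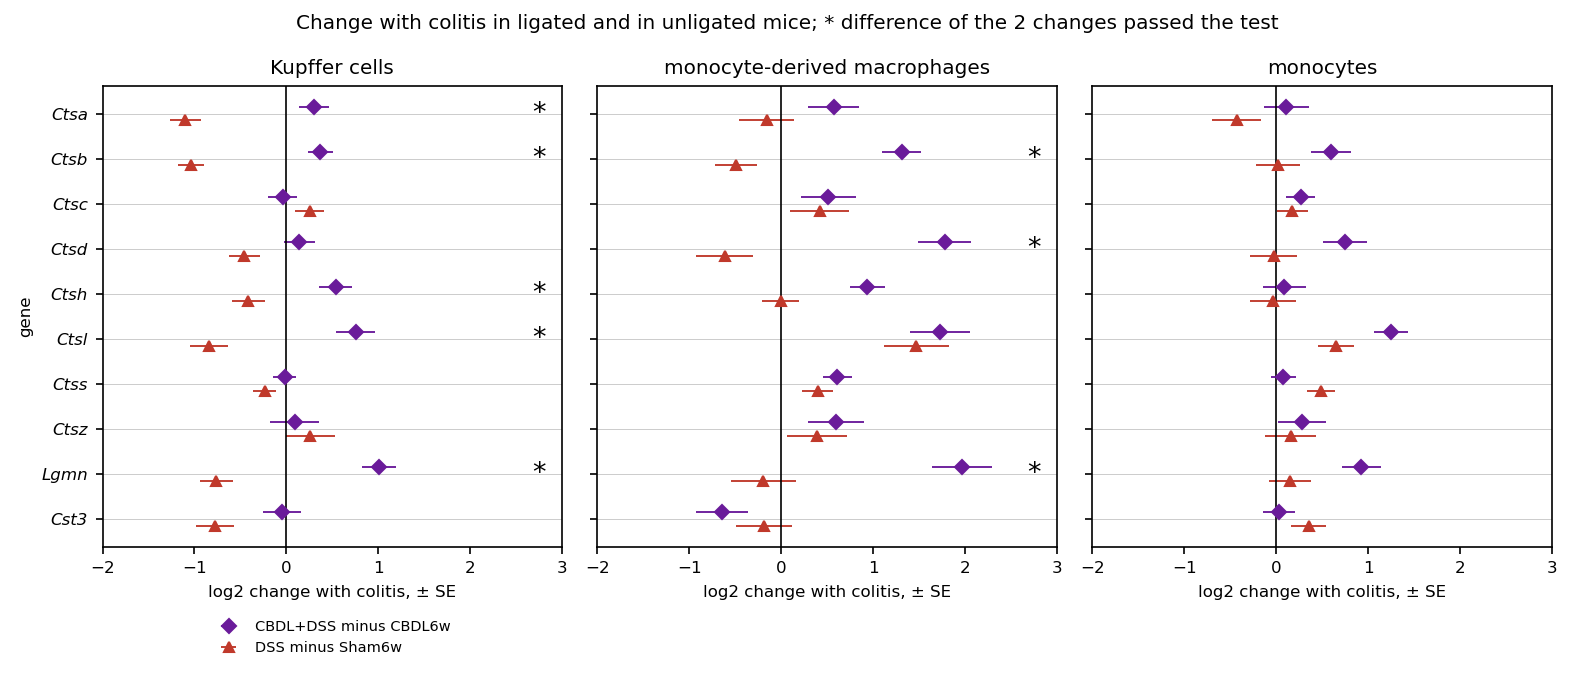
Log2 change with colitis (horizontal axes, ± SE) of each gene (rows) in ligated mice (CBDL+DSS minus CBDL6w, diamonds) and in unligated mice (DSS minus Sham6w, triangles), by cell type; a star marks genes whose 2 changes differed past the threshold. The changes of Lgmn in KC are 1.01 in ligated and -0.76 in unligated mice, and those of Ctsd in MoMF are 1.78 and -0.62.

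The largest count of changed genes against controls, over all injury groups and cell types, was in MoMF CBDL+DSS. There 8 of the 10 genes rose against Sham6w and 0 fell, where 9.8% of 6079 genes passed in either direction and 4.61% rose. The median change was 1.20 over the 10 genes, beside 0.08 over all genes. Ctsd had 202, 155, 148 and 134 in CBDL+DSS against 39.6, 50.0 and 45.2 in Sham6w. Even the lowest of the CBDL+DSS libraries was well above the highest control, and the change was 1.80 ± 0.31 (adjusted p = 0.000626). Lgmn had 229, 279, 211 and 196 in CBDL+DSS against 34.7, 102 and 75.6 in Sham6w, a change of 1.80 ± 0.35 (adjusted p = 0.00225). Its controls were uneven, and library 1+2+5 was the lowest of them. Ctsh had 234, 253, 288 and 249 in CBDL+DSS against 96.6, 80.4 and 75.6 in Sham6w, a change of 1.60 ± 0.20 (adjusted p = 2.84e-05). Ctss had 1368, 1466, 1391 and 1417 in CBDL+DSS against 822, 568 and 642 in Sham6w, a change of 1.07 ± 0.17 (adjusted p = 0.000301). For both, the groups did not overlap.

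Ctsl, Ctsb, Ctsa and Ctsc completed the 8. Ctsb had 471, 437, 478 and 354 in MoMF CBDL+DSS against 186, 196 and 154 in Sham6w, apart by 1.28 ± 0.23 (adjusted p = 0.00105). Ctsl averaged 149.6 ± 27.1 in CBDL+DSS (SD, n = 4) against 51.9 ± 20.0 in Sham6w (SD, n = 3), a change of 1.56 ± 0.35 (adjusted p = 0.00601). Ctsa changed by 1.13 ± 0.30 (adjusted p = 0.0179), and missed the threshold without Sham6w library 1+2+5 or CBDL+DSS library 1 (adjusted p = 0.0602 to 0.0613). Ctsc had 131, 172, 200.5 and 166 in CBDL+DSS against 44.6, 97.8 and 113 in Sham6w, a change of 1.06 ± 0.32 (adjusted p = 0.0395). That change was 0.65 without Sham6w library 1+2+5 (adjusted p = 0.251), and the call was also lost without CBDL+DSS library 2, 3 or 4+5 (up to 0.0951) and with edgeR (0.0793). With the joined libraries left out, which leaves 1 control library, Ctsh and Ctss passed and the count was 2. Cst3 (-0.56) and Ctsz (0.87) did not pass. Kupffer cell markers took 0.022 to 0.0816% of reads in MoMF CBDL+DSS and 0.0607 to 0.265% in MoMF Sham6w, with all 7 detected in both and with overlap. Patrolling monocyte markers, 5 genes all detected, took 0.0783 to 0.0904% in MoMF CBDL+DSS and 0.154 to 0.187% in MoMF Sham6w. Classical monocyte markers (all 6 detected) took 0.119 to 0.149% in CBDL+DSS and 0.0701 to 0.105% in Sham6w. T and NK cell markers took 0.000553 to 0.00208% in CBDL+DSS, with Cd3d, Cd3g and Klrb1c at 0, and 0.00843 to 0.033% in Sham6w. Dendritic cell markers, given with Cst3, were also lower in CBDL+DSS. Apart from the Kupffer cell list, none of these lists overlapped between the groups, and their part was not tested.

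Most of the same proteases were higher in MoMF when colitis was added to ligation. Against CBDL6w, 6 of the 10 genes rose in CBDL+DSS and 0 fell, where 4.16% of genes passed. These were Lgmn, Ctsd, Ctsl, Ctsb, Ctsh and Ctss. Lgmn had 229, 279, 211 and 196 in CBDL+DSS against 39.5, 81.4, 44.7 and 73.9 in CBDL6w, a change of 1.97 ± 0.33 (adjusted p = 0.00109). Ctsd had 202, 155, 148 and 134 in CBDL+DSS against 41.2, 61.8, 41.5 and 39.8 in CBDL6w, a change of 1.78 ± 0.28 (adjusted p = 0.000795). Neither gene's groups overlapped. Ctsl changed by 1.73 ± 0.32, Ctsb by 1.31 ± 0.21 and Ctsh by 0.94 ± 0.19. Ctss changed by 0.61 ± 0.16 (adjusted p = 0.0279), a call lost without CBDL6w library 1 or 3 or any 1 of the CBDL+DSS libraries 1, 2, 3 and 4+5 (adjusted p = 0.0557 to 0.106). Several marker shares also moved between these groups without overlap. In CBDL+DSS and CBDL6w, classical monocyte markers took 0.119 to 0.149% and 0.174 to 0.307%. Patrolling monocyte markers took 0.0783 to 0.0904% and 0.106 to 0.157%, and hepatocyte markers 0.0293 to 0.0448% and 0.0125 to 0.0279%. Dendritic cell and T and NK cell shares were lower in CBDL+DSS, and the part of these lists was not tested.

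The effect of colitis on MoMF differed with ligation for 3 of the 10 genes, where 2.09% of genes passed. The difference was 2.40 ± 0.42 for Ctsd (adjusted p = 0.00359), 2.16 ± 0.48 for Lgmn (0.0193) and 1.81 ± 0.31 for Ctsb (0.00359). For Lgmn it missed the threshold without Sham6w library 3 (adjusted p = 0.052). None of these 3 passed in MoMF DSS against Sham6w: Ctsd had 23.8, 25.5, 41.6 and 27.2 in MoMF DSS against 39.6, 50.0 and 45.2 in Sham6w, overlapping. Ctsb ran from 99.9 to 152 in MoMF DSS, below 154 to 196 in Sham6w without overlap. Lgmn overlapped, at 35.3 to 84.2 in MoMF DSS and 34.7 to 102 in Sham6w. Ctsl was the 1 gene of the 10 that passed in MoMF DSS, where 2.07% of genes did. It had 77.7, 136, 210.0 and 167 in DSS against 34.7, 73.9 and 47.1 in Sham6w, and rose by 1.47 ± 0.35 (adjusted p = 0.0301) without overlap. The call was lost without Sham6w library 1+2+5 or 4+6 or DSS library 2, 3 or 5+6 (adjusted p = 0.0558 to 0.115) and with the joined libraries left out. Several marker shares moved with it without overlap. In DSS and Sham6w, endothelial markers took 0.118 to 0.127% and 0.0227 to 0.0462% of reads, and classical monocyte markers 0.152 to 0.199% and 0.0701 to 0.105%. Patrolling monocyte markers took 0.215 to 0.253% and 0.154 to 0.187%. Kupffer cell, hepatocyte, B cell and mitochondrial shares were lower in DSS. In MoMF CBDL+DSS, Ctsl averaged 149.6 and endothelial markers took 0.00566 to 0.0354%. The part of these lists was not tested.

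In early ligation 2 of the 10 genes rose in MoMF, where 3.06% of genes passed, and in advanced ligation 0 passed with limma, where 1.22% passed. In CBDL2w, Ctsh had 171, 204, 197 and 154 in CBDL2w against 96.6, 80.4 and 75.6 in Sham6w, a change of 1.10 ± 0.20 (adjusted p = 0.00291) with no overlap. Ctss had 1161, 1152, 1034 and 899.8 in CBDL2w against 822, 568 and 642 in Sham6w, a change of 0.66 ± 0.17 (adjusted p = 0.0332). That call was lost without Sham6w library 3 or 4+6 or CBDL2w library 1, 2 or 3 (adjusted p = 0.0703 to 0.0969), and neither passed with the joined control libraries left out. Several marker shares moved with CBDL2w without overlap. Classical monocyte markers took 0.19 to 0.244% in CBDL2w and 0.0701 to 0.105% in Sham6w, and Kupffer cell markers 0.0165 to 0.042% in CBDL2w and 0.0607 to 0.265% in Sham6w. Endothelial markers took 0.00638 to 0.0154% in CBDL2w and 0.0227 to 0.0462% in Sham6w. T and NK cell and mitochondrial shares were lower too, ribosomal protein shares were higher, and the part of these lists was not tested. In CBDL6w, 2 genes had an unadjusted p under 0.05, edgeR called 0 and DESeq2 called 1.

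Of 37 listed genes of the pathway, 16 were tested in MoMF, and 5 rose in CBDL+DSS against Sham6w while 0 fell, where 9.8% of all genes passed. Tfe3, a relative of TFEB, averaged 33 ± 7.86 in CBDL+DSS (SD, n = 4) and 8.05 ± 4.82 in Sham6w (SD, n = 3), a change of 2.09 (adjusted p = 0.00675). Cstb, an inhibitor of cysteine cathepsins inside the cell, changed by 1.36 (adjusted p = 0.00484). M6pr, which carries lysosomal enzymes to the lysosome, changed by 1.18 (adjusted p = 0.0243). The other two were Cd74, the invariant chain, and Psap, the precursor of sphingolipid activators. Tfe3, Cstb, Cd74 and Psap also rose in CBDL2w (4 of 16, where 3.06% of all genes passed), and Tfe3 and Psap in DSS (2 of 16, where 2.07% passed). In CBDL6w against Sham6w 0 of 16 passed, and 0 of 16 passed between CBDL+DSS and CBDL6w, where 6 of the 10 genes described here rose. In the difference of colitis effects Tfeb itself passed, at -4.59 (adjusted p = 0.0288).

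In Mo, Ctsl was lower and Ctss higher in both ligation groups than in Sham6w. In CBDL2w and in CBDL6w, 1 of the 10 genes rose and 1 fell, where 13.8% and 11.2% of 6112 genes passed. Ctsl had 68.9, 84.7, 65.2 and 96.3 in CBDL2w and 63.4, 61.5, 55.5 and 45.4 in CBDL6w, against 155, 235 and 157 in Sham6w. All ligated libraries lay below the controls, at changes of -1.19 ± 0.20 (adjusted p = 0.000258) and -1.66 ± 0.20 (adjusted p = 9.52e-06). Ctss had 882, 986, 992 and 903 in CBDL2w and 885, 1279.7, 736 and 934 in CBDL6w, against 659.9, 524 and 658 in Sham6w. It was higher in both by 0.62 ± 0.15 (adjusted p = 0.0069 and 0.00872) without overlap. Both Ctss calls were lost without Sham6w library 3+6 (adjusted p = 0.0601 and 0.0708). With the joined control libraries left out, 0 of the 2 calls passed in CBDL2w, and Ctsl alone passed in CBDL6w.

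Endothelial marker reads divided the Mo libraries along the same line as Ctsl in part. They took 0.0101 to 0.0122% in CBDL2w, 0.00906 to 0.023% in CBDL6w, 0.123 to 0.255% in DSS and 0.0137 to 0.0238% in CBDL+DSS, against 0.178 to 0.315% in Sham6w, with all 8 markers detected in each group. Dendritic cell markers took 0.000397 to 0.00286%, 0.000358 to 0.00251%, 0.0127 to 0.0304% and 0.00103 to 0.00471% in the same 4 injury groups and 0.0223 to 0.0369% in Sham6w. At 0 were Ccr7 and Cd209a in CBDL2w, Cd209a, Xcr1 and Zbtb46 in CBDL6w, and Ccr7 in Sham6w. Ribosomal protein transcripts took 14.1 to 18.0% in CBDL2w and 15.3 to 17.0% in CBDL6w, against 9.61 to 10.8% in Sham6w. Classical monocyte markers took 0.434 to 0.507% in CBDL2w and 0.424 to 0.488% in CBDL6w, against 0.251 to 0.349% in Sham6w. The part of these lists in the Ctsl and Ctss values was not tested. Ctsl was higher in CBDL+DSS than in CBDL6w, with 126, 166, 121 and 129 in CBDL+DSS against 63.4, 61.5, 55.5 and 45.4 in CBDL6w, while the endothelial shares of those groups overlapped. That change was 1.25 ± 0.18 (adjusted p = 0.00199). Other markers did move between these groups without overlap. Neutrophil markers (7 genes, all detected) took 0.0373 to 0.0895% in CBDL+DSS and 0.00895 to 0.0358% in CBDL6w. The share of patrolling monocyte markers (5 genes, all detected) was 0.13 to 0.148% for CBDL+DSS against 0.102 to 0.129% for CBDL6w. The part of either list was not tested.

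**Figure D4:**
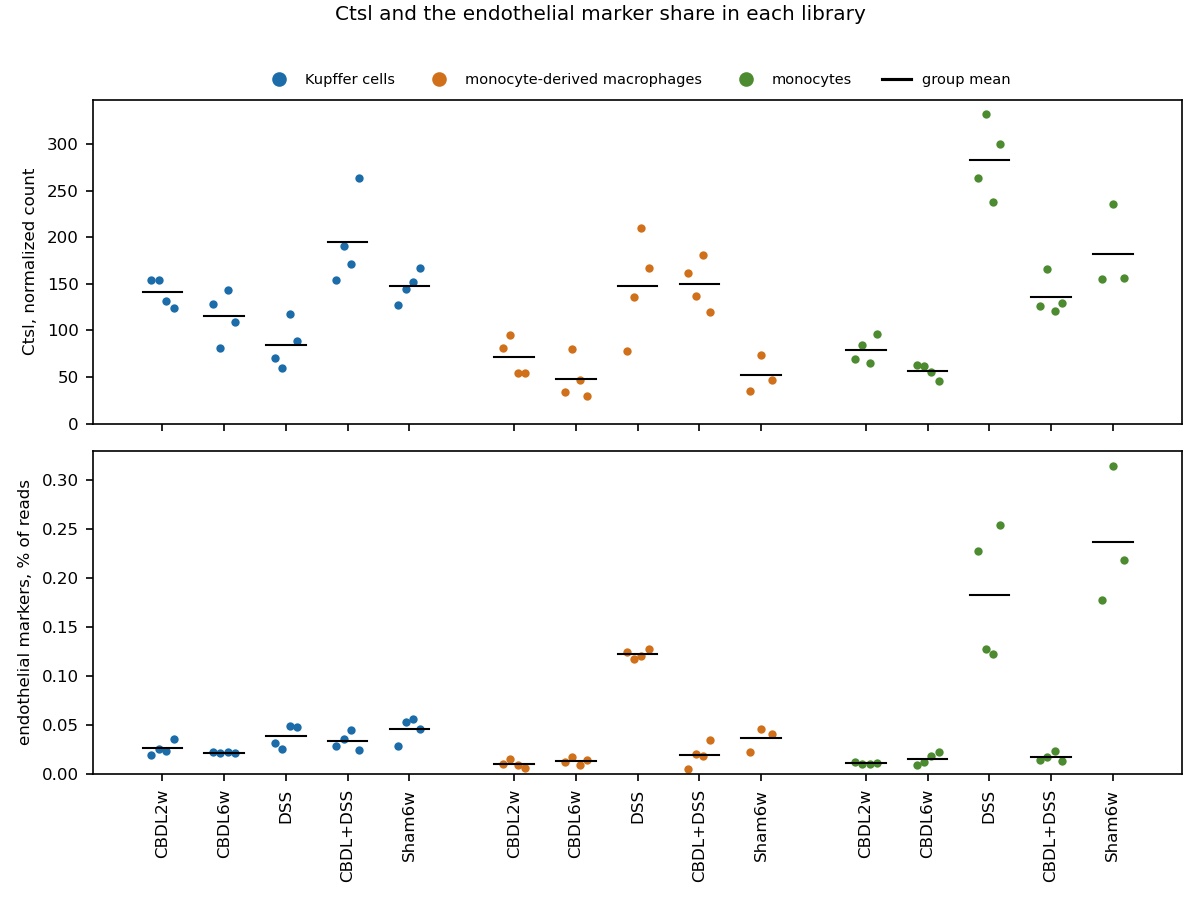
Ctsl (top, normalized count) and the share of reads from 8 endothelial marker genes (bottom, % of reads) in each library, by cell type and injury group; points are libraries and bars group means. Mo DSS and Mo Sham6w are high in both panels, and Mo CBDL+DSS (121 to 166 for Ctsl) is above Mo CBDL6w (45.4 to 63.4) in the top panel only.

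In Mo CBDL+DSS, 4 of the 10 genes rose against Sham6w and 0 fell, where 13.1% of genes passed. Several marker shares moved between these groups without overlap. In CBDL+DSS and Sham6w, classical monocyte markers took 0.398 to 0.456% and 0.251 to 0.349%, and patrolling monocyte markers 0.130 to 0.148% and 0.191 to 0.204%. Ribosomal protein transcripts took 13.8 to 15.9% and 9.61 to 10.8%, and mitochondrial transcripts 3.78 to 4.39% and 4.58 to 6.54%. The part of these lists was not tested. Ctss changed by 0.70 ± 0.15 (adjusted p = 0.00374), with 971, 968, 980.2 and 1055 in CBDL+DSS against 659.9, 524 and 658 in Sham6w. Ctsd had 99.8, 73.7, 75.6 and 85.8 in CBDL+DSS against 57.7, 42.3 and 34.7 in Sham6w, a change of 0.91 ± 0.26 (adjusted p = 0.0242). Lgmn had 92.4, 83.9, 74.1 and 90.4 in CBDL+DSS against 45.9, 51.9 and 50.3 in Sham6w, a change of 0.77 ± 0.23 (adjusted p = 0.0287). For these 3 the groups did not overlap. Ctsh changed by 0.76 ± 0.25 (adjusted p = 0.0482), with overlap. Ctsd missed the threshold without Sham6w library 3+6 or 4 or CBDL+DSS library 1 or 6 (adjusted p = 0.0534 to 0.102). Lgmn missed it without any 1 Sham6w library or CBDL+DSS library 1, 2 or 6 (0.057 to 0.0928), and Ctsh without Sham6w library 3+6 or 4 or CBDL+DSS library 2, 4+5 or 6 (0.0524 to 0.326). Without the filter on low values the count was 1, and with the joined libraries left out it was 0.

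Colitis alone moved none of the 10 genes in Mo past the threshold with limma, where 1.59% of genes passed. At an unadjusted p under 0.05 the count was 2, edgeR called 0 and DESeq2 called 2. Against CBDL6w, 2 were higher in CBDL+DSS, Ctsl as given above and Lgmn, where 0.573% passed. Lgmn had 92.4, 83.9, 74.1 and 90.4 in CBDL+DSS against 55.7, 49, 43.9 and 31.6 in CBDL6w, a change of 0.93 ± 0.21 (adjusted p = 0.0419). That call was lost without CBDL6w library 2, 3 or 4 or any 1 CBDL+DSS library (adjusted p = 0.0615 to 0.148) and with edgeR (0.0538). The difference of colitis effects passed for 0 of the 10 genes in Mo with limma, edgeR and DESeq2, with 3 at an unadjusted p under 0.05, where 0.311% of genes passed. Of 16 pathway genes tested in Mo, 1 passed in CBDL2w and 1 in CBDL+DSS against Sham6w, where 13.8% and 13.1% of all genes passed. It was Cstb in both, which rose by 0.89 (adjusted p = 0.00782) in CBDL2w and by 0.86 (adjusted p = 0.0135) in CBDL+DSS.

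Advanced and onset ligation were not told apart by these genes. Between CBDL6w and CBDL2w, 0 of the 10 passed in KC, MoMF and Mo with limma, edgeR and DESeq2, and 1 gene in each cell type had an unadjusted p under 0.05. The share of all genes that passed was 0% in KC, 0.0823% in MoMF and 0% in Mo. In KC, Lgmn had 190.3, 157, 251 and 138 in CBDL6w against 267, 263, 212 and 269 in CBDL2w, which overlapped.

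The gap between KC and MoMF seen in control livers was narrower in CBDL+DSS. There 0 of the 10 genes differed between KC and MoMF with limma, where 4.88% of genes passed. The count at an unadjusted p under 0.05 was 1, edgeR called 0 and DESeq2 called 1. The log2 differences ran from -0.42 (Cst3) to 0.67 (Lgmn). Ctsd had 166, 189, 155 and 186 in KC and 202, 155, 148 and 134 in MoMF, which overlapped. Lgmn had 293, 355, 386 and 425 in KC and 229, 279, 211 and 196 in MoMF, with KC above MoMF in every library, but did not pass (adjusted p = 0.132). Ctss lay below MoMF in every KC library and did not pass either, at -0.12 ± 0.13.

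The change of that gap was tested as the effect of CBDL+DSS against Sham6w in KC minus the same effect in MoMF. It passed for 5 of the 10 genes, where 1.99% of genes did. All 5 were negative: Ctsa at -1.39 ± 0.33 (adjusted p = 0.0118), Ctsb at -1.23 ± 0.28 (0.0102) and Ctss at -0.91 ± 0.20 (0.00487), with Ctsd and Ctsc beside them. Ctsd, at -1.25 ± 0.34 (0.032), missed the threshold without KC library Sham6w 4, CBDL+DSS 1+3 or CBDL+DSS 4+5, or MoMF library Sham6w 1+2+5, CBDL+DSS 1 or CBDL+DSS 2 (adjusted p = 0.0522 to 0.115). Ctsc, at -1.18 ± 0.32 (0.03), missed it without KC library Sham6w 2 or 4 or CBDL+DSS 1+3, 2 or 6, or MoMF library Sham6w 1+2+5 or CBDL+DSS 2 or 3 (0.0551 to 0.283), and with edgeR (0.072). The count was 3 without KC library Sham6w 4 or CBDL+DSS 1+3 or MoMF library Sham6w 1+2+5 or CBDL+DSS 2, ran up to 7 as other single libraries were left out, was 3 without the filter and 3 with equal library totals, and was 0 with the joined libraries left out. Ligation alone gave 0 of 10 for the same difference in CBDL2w and in CBDL6w with limma, edgeR and DESeq2, where 0.344% and 0.397% of genes passed; 4 and 1 had an unadjusted p under 0.05. For CBDL6w, 1 passed with limma without MoMF Sham6w library 4+6.

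**Figure D5:**
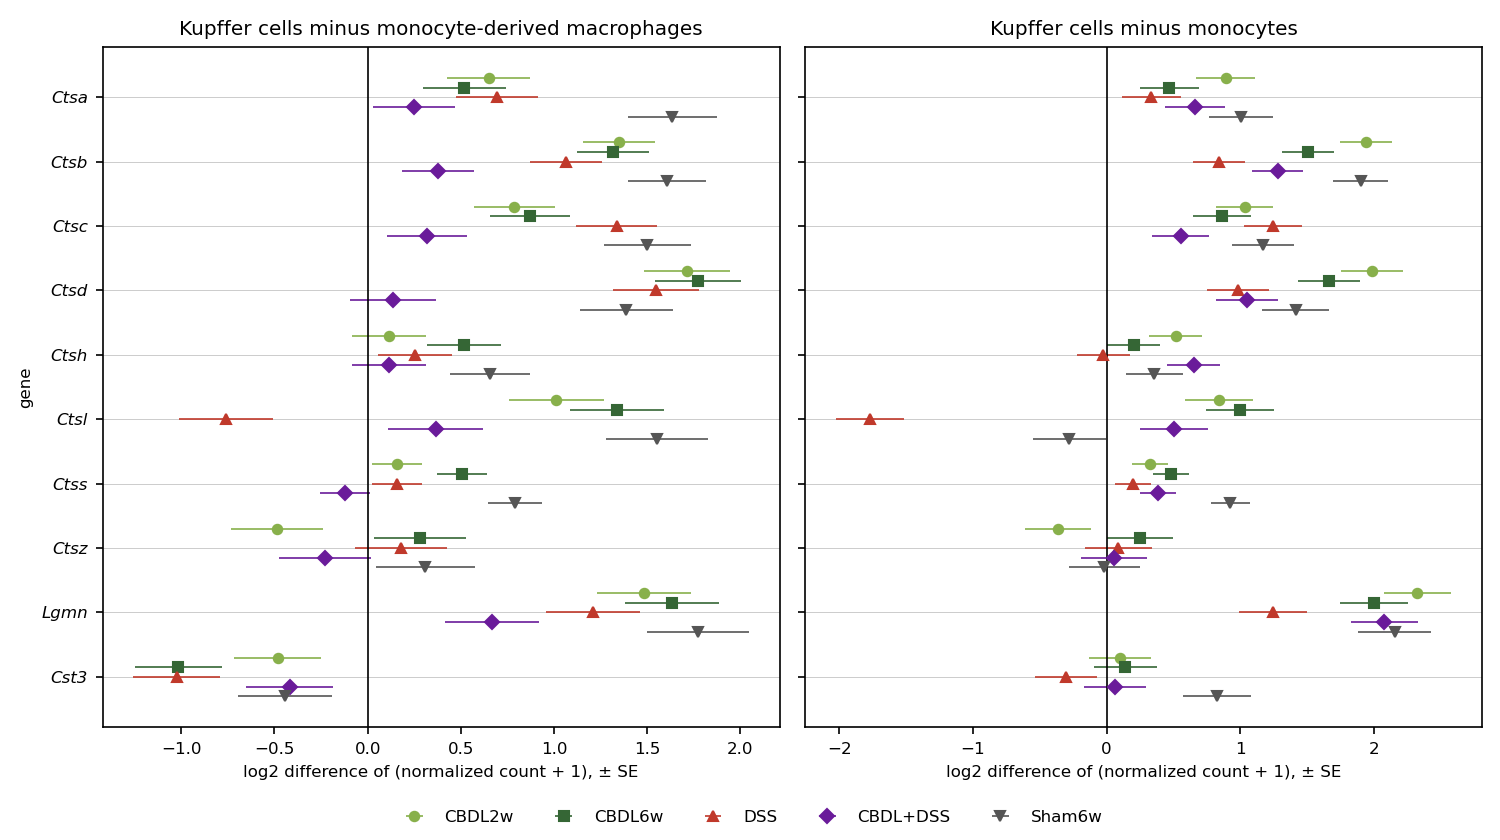
Log2 difference (horizontal axes, ± SE) of each gene (rows) between KC and MoMF (left) and between KC and Mo (right) within each injury group, shown by marker. In the left panel the CBDL+DSS diamonds lie between -0.42 and 0.67, and the Sham6w triangles of Ctsa, Ctsb, Ctsc, Ctsd, Ctsl and Lgmn lie between 1.39 and 1.77.

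In the other injuries KC stayed above MoMF for several proteases. In CBDL2w 5 of the 10 genes were higher in KC and 0 lower (Ctsd, Lgmn, Ctsb, Ctsl and Ctsc), where 6.63% of genes passed. In CBDL6w 6 were higher, the same 5 and Ctss, and Cst3 was lower, where 9.66% passed. In DSS 5 were higher (Ctsd, Lgmn, Ctsb, Ctsc and Ctsa) and Ctsl and Cst3 were lower, where 13.5% passed. Ctsc was lost in CBDL2w without KC library 1 or MoMF library 3 or 4 (adjusted p = 0.0646 to 0.101). Ctsc and Ctss were lost in CBDL6w without MoMF library 1 (0.0513 and 0.0632). In DSS, Ctsa was lost without KC library 1, 2 or 3 or MoMF library 1, 2 or 5+6 (0.0512 to 0.087), and Ctsl without KC library 1, 2 or 4 or MoMF library 2, 3 or 5+6 (0.0517 to 0.194). Ctsl had 70.6, 60.0, 118 and 88.3 in KC DSS and 77.7, 136, 210.0 and 167 in MoMF DSS, with overlap. The effect of DSS on Ctsl differed between KC and MoMF by -2.31 ± 0.37 (adjusted p = 0.000302), the 1 gene of 10 that passed, where 0.86% did; with the joined libraries left out it did not pass.

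Against Mo, KC held more Ctsb, Ctsd and Lgmn in all 5 groups of mice. In CBDL2w 6 of the 10 genes were higher in KC and 0 lower, where 14.4% of genes passed, and in CBDL6w 6 were higher and 0 lower, where 15.3% passed. In DSS 4 were higher and 1 lower, where 14.7% passed, and in CBDL+DSS 6 were higher and 0 lower, where 14.4% passed. Lgmn differed by 2.32 in CBDL2w, 2.00 in CBDL6w, 1.24 in DSS, 2.08 in CBDL+DSS and 2.16 in Sham6w. Ctsl was the gene that was lower in KC than Mo in DSS, with 70.6, 60.0, 118 and 88.3 in KC and 263, 332, 238 and 299.6 in Mo. The groups did not overlap, and the difference was -1.77 ± 0.25 (adjusted p = 4.04e-07), beside endothelial marker shares of 0.0253 to 0.0491% in KC and 0.123 to 0.255% in Mo. The call for Ctsl in CBDL2w (0.84) was lost without Mo library 3, and that for Ctss in CBDL6w (0.48) without KC library 2 or Mo library 3 (adjusted p = 0.0504 to 0.0743). In CBDL+DSS, Ctsa (0.66) was lost without any 1 KC library or Mo library 2 or 6 (0.0534 to 0.181), and Ctsh (0.65) without KC library 6 or Mo library 1 (0.0704 to 0.137). Ctss (0.39) was lost there without any 1 KC library or Mo library 1, 2 or 4+5 (0.0667 to 0.0896). The CBDL+DSS count was 3 without KC CBDL+DSS library 6 and 3 without the filter on low values. Differences in injury effect between KC and Mo passed for 0 of 10 genes in CBDL2w, CBDL6w, DSS and CBDL+DSS with limma and edgeR, where 1.67%, 1.58%, 0.238% and 0.821% of genes passed. DESeq2 called 0, 1, 3 and 0 in these, and the counts at an unadjusted p under 0.05 were 3, 2, 6 and 4. With limma, 1 passed for CBDL6w without KC CBDL6w library 2, and 1 for DSS without KC DSS library 3 or Mo Sham6w library 3+6.

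MoMF stood above Mo for several proteases in CBDL+DSS. There 4 of the 10 genes were higher in MoMF and 0 lower, where 4.29% of genes passed. Lgmn had 229, 279, 211 and 196 in MoMF and 92.4, 83.9, 74.1 and 90.4 in Mo, apart by 1.41 ± 0.25 (adjusted p = 0.000145). Ctsb differed by 0.90 ± 0.19 (0.00186), Ctss by 0.51 ± 0.13 (0.0161) and Ctsd by 0.92 ± 0.23 (0.0103). Ctsd was lost without MoMF library 1 (adjusted p = 0.0596), and 2 genes passed with the joined libraries left out. In CBDL6w 1 gene passed, Cst3, where 2.16% of genes did. In DSS 1 gene passed, Ctsl, where 2.32% did. Ctsl was lower in MoMF, at -1.01 ± 0.25, a call lost without MoMF library 1 or Mo library 2 (adjusted p = 0.069 to 0.158). In CBDL2w 0 genes passed with limma, where 2.01% of genes did, 4 had an unadjusted p under 0.05, and edgeR and DESeq2 called 1 each; 1 passed with limma without MoMF library 4 and 2 without Mo library 2.

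Ctsl was the gene whose change against Sham6w differed between MoMF and Mo. The effect of CBDL2w was 1.66 ± 0.39 higher in MoMF (adjusted p = 0.0155), and that of CBDL+DSS 1.97 ± 0.39 higher (0.00296). It was the 1 gene of 10 that passed in each, where 1.38% and 2.12% of genes passed. The first call was lost without MoMF Sham6w library 1+2+5 or Mo Sham6w library 3+6 (adjusted p = 0.0726 to 0.0789), and neither passed with the joined libraries left out. In CBDL+DSS 2 genes passed without MoMF Sham6w library 3 or Mo Sham6w library 3+6. For CBDL6w and DSS, 0 of 10 passed with limma, edgeR and DESeq2, where 0.649% and 0.0397% of genes did, with 1 gene at an unadjusted p under 0.05 in each. For CBDL6w, 1 passed with limma without MoMF CBDL6w library 1 or 4 or MoMF Sham6w library 3. Endothelial markers took 0.178 to 0.315% of reads in Mo Sham6w, 0.0101 to 0.0122% in Mo CBDL2w and 0.0137 to 0.0238% in Mo CBDL+DSS. In MoMF they took 0.0227 to 0.0462%, 0.00638 to 0.0154% and 0.00566 to 0.0354% in the same order. Their part in the Ctsl differences was not tested.

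Cst3 did not follow the proteases between cell types. It was higher in MoMF than in KC in CBDL6w, where KC had 133, 145, 251 and 197 and MoMF had 339.9, 195, 548 and 448. The difference of KC from MoMF was -1.02 ± 0.23 (adjusted p = 0.00206) with overlap, and -1.02 ± 0.23 in DSS (adjusted p = 0.00119) without overlap. From Mo, MoMF CBDL6w differed by 1.16 ± 0.23 (adjusted p = 0.00168). Dendritic cells are known for high Cst3, and dendritic cell markers (7 genes) took 0.00436 to 0.00704%, 0.00492 to 0.0296%, 0.00316 to 0.0118% and 0.00052 to 0.00421% of reads in MoMF CBDL2w, CBDL6w, DSS and CBDL+DSS, against 0.0059 to 0.0129% in MoMF Sham6w. Ccr7 was at 0 in MoMF CBDL2w and CBDL+DSS. Dendritic cell markers took 0.000611 to 0.00262% in KC CBDL6w, 0.000844 to 0.00237% in KC DSS and 0.000358 to 0.00251% in Mo CBDL6w. In control livers they took 0.0223 to 0.0369% in Mo and 0.000536 to 0.00383% in KC. Cst3 averaged 357 ± 142 in MoMF Sham6w and 143 ± 38.4 in Mo Sham6w (SD, n = 3 each). Its mean in KC Sham6w was 249 ± 35.7 (SD, n = 4). The part of these markers in the Cst3 values was not tested. KC Sham6w held more Cst3 than Mo Sham6w, by 0.83 ± 0.25 (adjusted p = 0.0164), a call lost without Mo Sham6w library 3+6 (adjusted p = 0.171).

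Of the 19 pathway genes tested in the fit of all libraries, 3 were higher and 2 lower in KC than in Mo in control livers, where 16% of all genes passed. Ctse, an aspartic protease, averaged 0.798 ± 1.6 in KC (SD, n = 4) and 20.6 ± 4.36 in Mo (SD, n = 3), a difference of -3.90 (adjusted p = 2.84e-07). Ctsf, a cysteine protease, averaged 13.4 ± 5.21 in KC and 0.437 ± 0.757 in Mo, a difference of 3.37 (adjusted p = 0.000452). Sort1, a sorting receptor, was lower in KC, at -3.22 (adjusted p = 7.04e-05). Against MoMF, 4 were higher and 2 lower in KC, where 15.9% of all genes passed, led by Ctse at -3.59 (adjusted p = 3.11e-06), Tfe3 at 2.62 (adjusted p = 0.00012) and Ctsw at -2.53 (adjusted p = 0.00775). In CBDL+DSS, 2 were higher and 1 lower in KC than in MoMF, where 4.88% of all genes passed. Serpinb6a, an inhibitor of serine proteases, was higher in KC by 3.32 (adjusted p = 0.00262) and Ctse lower, at -4.18 (adjusted p = 9.70e-08).

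Ctsb, Ctsd and Lgmn varied together across the 15 group means. Pearson's r of log2 values was 0.973 for Ctsb with Lgmn, 0.966 for Ctsb with Ctsd and 0.940 for Ctsd with Lgmn. Ctsc with Ctss gave 0.756 over all 15 means and -0.983 over the 5 KC means, so the pooled value did not hold within KC. It gave 0.994 over the 5 MoMF means and 0.767 over the 5 Mo means. Cst3 had a negative r with all 9 others, from -0.431 with Ctsl to -0.0741 with Ctss. Over the 5 KC means its r ran from -0.440 with Ctsz and -0.413 with Ctsc, through 0.0429 with Ctsh, to 0.703 with Ctsb and 0.870 with Ctsa. The sign over all means therefore did not hold for every gene within KC. Over the 5 MoMF means its r was negative with all 9, from -0.889 with Ctsz to -0.577 with Ctsa. Over the 5 Mo means it ran from -0.679 with Ctsa to 0.759 with Ctss. These are descriptions over means that share libraries, cell types and size factors. Among 6817 named genes outside the 10, the one most like each in its 15 means was B4galt6 (0.96) for Ctsa, Abca1 (0.96) for Ctsb, Msr1 (0.95) for Ctsc, Tmem37 (0.94) for Ctsd and Ttyh3 (0.93) for Ctsh. It was Sgk1 (0.88) for Ctsl, Clec4n (0.93) for Ctss, Atg9a (0.85) for Ctsz, Slc3a2 (0.96) for Lgmn and H2-Ob (0.89) for Cst3, with Pearson's r in parentheses.

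Overlapping annotation limits a few values. Ctsb shares 774 exon bases with Fdft1 on the opposite strand, whose mean was at most 9.98 in any group. Ctsd shares 808 exon bases with Gm49369 on the same strand, whose mean was at most 2.11 in any group, so reads shared between them are uncertain. Ctsl shares 1742 exon bases with the antisense gene Gm47123, whose mean was at most 0.205 in any group, and 395 with the pseudogene Gm49230. Ctsa shares 324 exon bases with Neurl2 besides Pltp, and Ctsz shares 10 with Nelfcd. The libraries came from a 3' mRNA kit, and where reads lie within each gene is not given in the sources used here.

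Ctsz passed in none of the 48 comparisons with limma. Its largest change against Sham6w was in MoMF CBDL+DSS, with 23, 26.6, 25.6 and 25.7 in CBDL+DSS against 19.8, 11.9 and 9.82 in Sham6w, a change of 0.87 ± 0.33 (adjusted p = 0.0912). At these levels a library held few reads of it, 1162 over all 58.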

How the data were processed

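Libraries were made with a QuantSeq 3' mRNA FWD kit with molecular identifiers, per the labels' protocols. STAR 2.7.5b, RSEM 1.3.1, UMI-tools 1.0.1, Trimmomatic 0.39 and 0.39-1, DESeq2 and the build GRCm38.p6 stand in the submitters' processing notes. Neither their order, nor the annotation, nor the strand of counting was given in the sources used here. For each gene and library the deposited table holds a signal, counts that the authors divided by a size factor. Whole reads were recovered for 100% of values (tolerance 0.01); size factors ran from 0.404 to 1.68 and totals from 118687 to 521954. Symbols came from GENCODE M21 for 25272 of 25307 identifiers.

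Differences were tested with limma 3.58.1 (R 4.3.3; trend, robust) on log2(normalized count + 1), for genes at 10 or more in at least 3 libraries, in 1 fit per cell type (6159, 6079 and 6112 genes in KC, MoMF and Mo) and 1 fit of all libraries (7555 genes) for cell types and differences of effects. This log2 scale understates changes of low genes. On the recovered reads, the alternatives were edgeR 4.0.16 and DESeq2 1.42.0. On the log2 values they were a pseudocount of 5, no filter, equal totals, a block for the replicate number, only libraries with a single replicate number, and leaving out each library. The 10 genes, the 37 pathway genes and the marker lists were chosen with earlier results of these data known. All 10 genes are named; of the pathway genes, at most 3 with the largest changes per comparison are given with values, and the 1 gene with the highest Pearson's r over the 15 group means is named as most alike. No 2 libraries were identical, and in every replicate pair chi-square over its degrees of freedom was at least 2.81, above counting error.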

Additional observations from a re-analysis of the deposited data

Results flagged for a closer look

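In 10 of the 130 combinations of gene and group with 4 libraries, 1 library stood far from the other 3; chance gives about 1 in 20. In MoMF CBDL6w, library 2 was high for Ctsc (235, others 78.1 to 103) and for Ctsd (61.8, others 39.8 to 41.5). In KC DSS, library 3 was low for Ctsd (68.6, others 91.3 to 94.8) and high for Ctss (1138, others 921 to 957). In Mo CBDL+DSS, library 1 was low for Ctsh (121, others 197 to 202) and library 6 high for Ctss (1055, others 968 to 980.2). For Lgmn, library 3 was low in KC CBDL2w (212, others 263 to 269) and library 2 high in Mo CBDL2w (74.8, others 41.8 to 44.0). For Cst3, library 4 was high in MoMF CBDL2w (325, others 225 to 242) and library 6 high in KC CBDL+DSS (250.1, others 141 to 157).

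Colitis effects that differed with ligation were found in KC for Lgmn (1.77), Ctsl (1.60), Ctsb (1.41), Ctsa (1.40) and Ctsh (0.95), and in MoMF for Ctsd (2.40), Lgmn (2.16) and Ctsb (1.81), as log2 differences. Injury effects that differed between KC and MoMF were those of DSS on Ctsl (-2.31) and of CBDL+DSS on Ctsa (-1.39), Ctsd (-1.25), Ctsb (-1.23), Ctsc (-1.18) and Ctss (-0.91). Between MoMF and Mo, the effects on Ctsl differed in CBDL2w (1.66) and in CBDL+DSS (1.97).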

How the results depend on the processing

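Of 116 calls over the 48 comparisons, a pseudocount of 5 kept 116 and added 3, no filter kept 100, equal totals kept 111 and added 6, edgeR kept 110 and added 1, and DESeq2 kept 116 and added 18. In 0 settings did a called change turn its sign. Counts of passing genes that moved by over 1.5 times are given with their first value in brackets. Pseudocount 5 gave 1 [0] for the KC minus Mo effect of CBDL6w and of DSS and the MoMF minus Mo effect of CBDL6w. No filter gave 1 for KC CBDL+DSS [2], Mo CBDL+DSS [4] and Mo CBDL+DSS against CBDL6w [2], and 3 for KC against Mo in CBDL+DSS [6] and the KC minus MoMF effect of CBDL+DSS [5]. Equal totals gave 3 for that effect [5] and 1 [0] for KC CBDL2w, MoMF against Mo in CBDL2w, and the KC minus Mo and MoMF minus Mo effects of CBDL6w. edgeR gave 1 for Mo CBDL+DSS against CBDL6w [2] and MoMF against Mo in CBDL2w [0]. DESeq2 gave 1 [0] for KC CBDL2w, KC CBDL6w, MoMF CBDL6w, the KC minus Mo effect of CBDL6w, KC against MoMF in CBDL+DSS and MoMF against Mo in CBDL2w, 2 for KC CBDL+DSS against CBDL6w [1] and Mo DSS [0], and 3 for the KC minus Mo effect of DSS [0].

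With only libraries of a single replicate number the calls fell to 74. The count was 0 for MoMF CBDL2w [2], MoMF DSS [1], Mo CBDL2w [2], Mo CBDL+DSS [4], MoMF against Mo in Sham6w [2], the KC minus MoMF effects of DSS [1] and CBDL+DSS [5] and the MoMF minus Mo effects of CBDL2w [1] and CBDL+DSS [1]. It was 1 for KC CBDL+DSS [2], Mo CBDL6w [2] and Mo CBDL+DSS against CBDL6w [2], 2 for MoMF CBDL+DSS [8] and MoMF against Mo in CBDL+DSS [4], and 4 for KC against Mo [7] and MoMF [8] in Sham6w. Lone control libraries were assumed to vary like the other groups, and fewer libraries were tested.

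Whether equal replicate numbers mark the same animals was not given, and the main fits used no pairing. The correlation of same-numbered libraries, as deviations from group means, was -0.0552 to 0.0666 in 72 pairs between injuries. It was -0.0611 to 0.0950 in 45 pairs between cell types. Between cell types the median was 0.0346 for same-numbered pairs and -0.0108 for other pairs, and between injuries 0.000809 and -0.000408. Low correlations at this depth cannot tell whether samples were paired. With the replicate number as a block 76 calls were kept and 4 added. The block gave 0 for KC CBDL+DSS [2], KC CBDL+DSS against CBDL6w [1], MoMF CBDL2w [2], MoMF DSS [1], Mo CBDL2w [2], Mo CBDL+DSS [4], Mo CBDL+DSS against CBDL6w [2], the KC minus MoMF effect of DSS [1] and the MoMF minus Mo effect of CBDL2w [1]. The block gave 1 for the KC difference of colitis effects [5], Mo CBDL6w [2], the KC minus MoMF effect of CBDL+DSS [5] and MoMF against Mo in Sham6w [2]. It gave 2 for MoMF CBDL+DSS [8] and the MoMF minus Mo effect of CBDL+DSS [1], and 4 for KC against Mo in Sham6w [7]. The cause of these moves was not tested.

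Leaving out 1 library at a time kept 881 calls and lost 124. Counts then ran from 0 to 1 for MoMF DSS, MoMF against Mo in DSS, the KC minus Mo effects of CBDL6w and DSS, the KC minus MoMF effect of CBDL6w and the MoMF minus Mo effects of CBDL2w and CBDL6w, and from 0 to 2 for MoMF against Mo in CBDL2w. They ran from 1 to 2 for KC CBDL+DSS, KC CBDL+DSS against CBDL6w, MoMF CBDL2w, Mo CBDL2w, Mo CBDL6w, Mo CBDL+DSS against CBDL6w and the MoMF minus Mo effect of CBDL+DSS, and from 1 to 4 for Mo CBDL+DSS. They ran from 3 to 5 for KC DSS and KC against Mo in CBDL+DSS, and from 3 to 7 for the KC minus MoMF effect of CBDL+DSS. Depth limits Ctsz most, with 1162 reads in all.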
